A study of Rattus norvegicus with 256 samples.

Results

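Genes of iron and heme handling were followed across the organs of the rat: Cybrd1, Slc11a2, Slc40a1, Heph, Hamp, Tfrc, Tf, Fth1, Ftl1 and Hmox1. They were chosen by name, as every probeset annotated to one of these 10 symbols, which gave 15 of the 31042 probesets on the array, and the array names 14217 genes by a probeset with 1 symbol. Of the 15 probesets, 11 carried 1 symbol and 4 carried several. Both Tf probesets were annotated to Srprb and Tf, the Fth1 probeset to Fth1-ps5 and Fth1, and the Ftl1 probeset to Ftl1-ps14, LOC100362384, LOC100360087, Ftl1l2 and Ftl1, so their signal cannot be assigned to one gene.

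Dietary iron enters the body through the absorptive cells of the proximal small intestine, where it is reduced and imported at the brush border, then exported and oxidised at the opposite face of the cell. In the blood it travels on transferrin and is taken up through the transferrin receptor, above all by red cell precursors. Macrophages that digest old red cells open heme and return the iron to the blood, and the liver hormone hepcidin limits both flows by removing the exporter ferroportin from the cell surface.

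The samples were organs of untreated rats of the Han Wistar derived strain AlpkHsdBrlHan:WIST, from 5 males and 5 females whose ages the labels and methods do not state. Each array held RNA from one organ of one animal, with no pooling, and the 256 arrays covered 31 organs. Both sexes were sampled in 26 organs (115 male and 119 female arrays), while 22 arrays came from 5 organs of one sex. Each of the 57 groups of organ and sex held 2 to 5 arrays. Values are deposited log2 intensities after background adjustment and normalisation, on which a step of 1 is a 2-fold difference, and 6.65 was the level above which the study counted a probeset as expressed. A probeset was called between groups when the adjusted p was under 0.05, the difference was over 2-fold and the higher mean was above 6.65. Levels are compared between organs for one probeset only, since brightness differs between probesets for reasons other than transcript number. In whole organs, fewer cells of a type and less RNA per cell cannot be told apart.

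Array medians lay between 3.86 and 4.45. On 4 arrays, the male 3 aorta, the male 5 and female 2 bone marrow and the male 5 heart, the sex-linked transcripts Xist and Eif2s3y went against the labelled sex. By correlation over 11966 probesets, 3 lymph node arrays lay closer to the other lymph node than to their own. For the mesenteric array of male 5 the correlation was 0.769 with its own node and 0.909 with the mandibular node, for the mandibular array of male 5 it was 0.890 with its own node and 0.958 with the mesenteric node, and for the mandibular array of male 3 the difference was smaller (0.902 and 0.912). Member values on the arrays of male 5 and the counts of these organs are given with and without them, and the mandibular array of male 3 was kept.

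Promoter sequence is shown for Hamp and Tfrc, the regulator and the receptor of the system, because textbook control sequences of both lie near the start of the gene. Of the 10 genes, 7 had an entry in the RefSeq promoter table (GRCr8), with 8 promoters of 300 bases. Motifs were searched on both strands: TTCTTGGAA, which can bind the inflammatory factor STAT3, GGCGCC, a bone morphogenetic protein (BMP) response element, and ACGTG, the core of the hypoxia response element. The motifs searched do not overlap in these 8 promoters. The 150 bases before each start are printed 5′ to 3′ on the strand of the gene, with the motifs in capitals. The Hamp sequence lies at chr1:95300272-95300421 and the Tfrc sequence at chr11:81690319-81690468, both on the minus strand.
Hamp: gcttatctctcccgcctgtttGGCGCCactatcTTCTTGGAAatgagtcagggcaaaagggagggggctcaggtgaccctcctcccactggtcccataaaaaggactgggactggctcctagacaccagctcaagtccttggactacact
Tfrc: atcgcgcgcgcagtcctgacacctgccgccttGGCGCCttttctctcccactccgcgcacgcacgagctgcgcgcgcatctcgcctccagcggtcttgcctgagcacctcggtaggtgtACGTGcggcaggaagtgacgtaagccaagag

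In Hamp, GGCGCC began 129 bases and TTCTTGGAA 117 bases before the start, and in Tfrc, GGCGCC began 118 bases and ACGTG 31 bases before it. Over 33469 rat promoters of the same length, TTCTTGGAA was found in 0.53%, GGCGCC in 11.02% and ACGTG in 19.25%. Cybrd1 held GGCGCC, and the 5 promoters of Slc11a2, Slc40a1, Heph and Tf held none of the 3 motifs.

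Each organ was first set against the mean of the other 30, in one limma fit over all arrays with p-values adjusted over all probesets. Of the 465 comparisons of member probesets, 94 were called higher in the organ (20.2%) and 70 lower (15.1%). Over all probesets of the array in the same 31 organs, 8% of comparisons were called higher and 3.96% lower. The spleen had 10 of the 15 probesets called higher (8.32% of all probesets), the duodenum 9 (7.09%), bone marrow 8 (8.87%) and the liver 7 (7.79%), whereas the adrenal had 7 called lower (4.83%) and the pituitary 6 (5.87%). The median difference of the member probesets was 1.99 in bone marrow, 1.89 in the spleen, 1.58 in the duodenum and 0.86 in the liver, against 0.01, -0.09, -0.10 and -0.04 over all probesets.

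**Figure D1:**
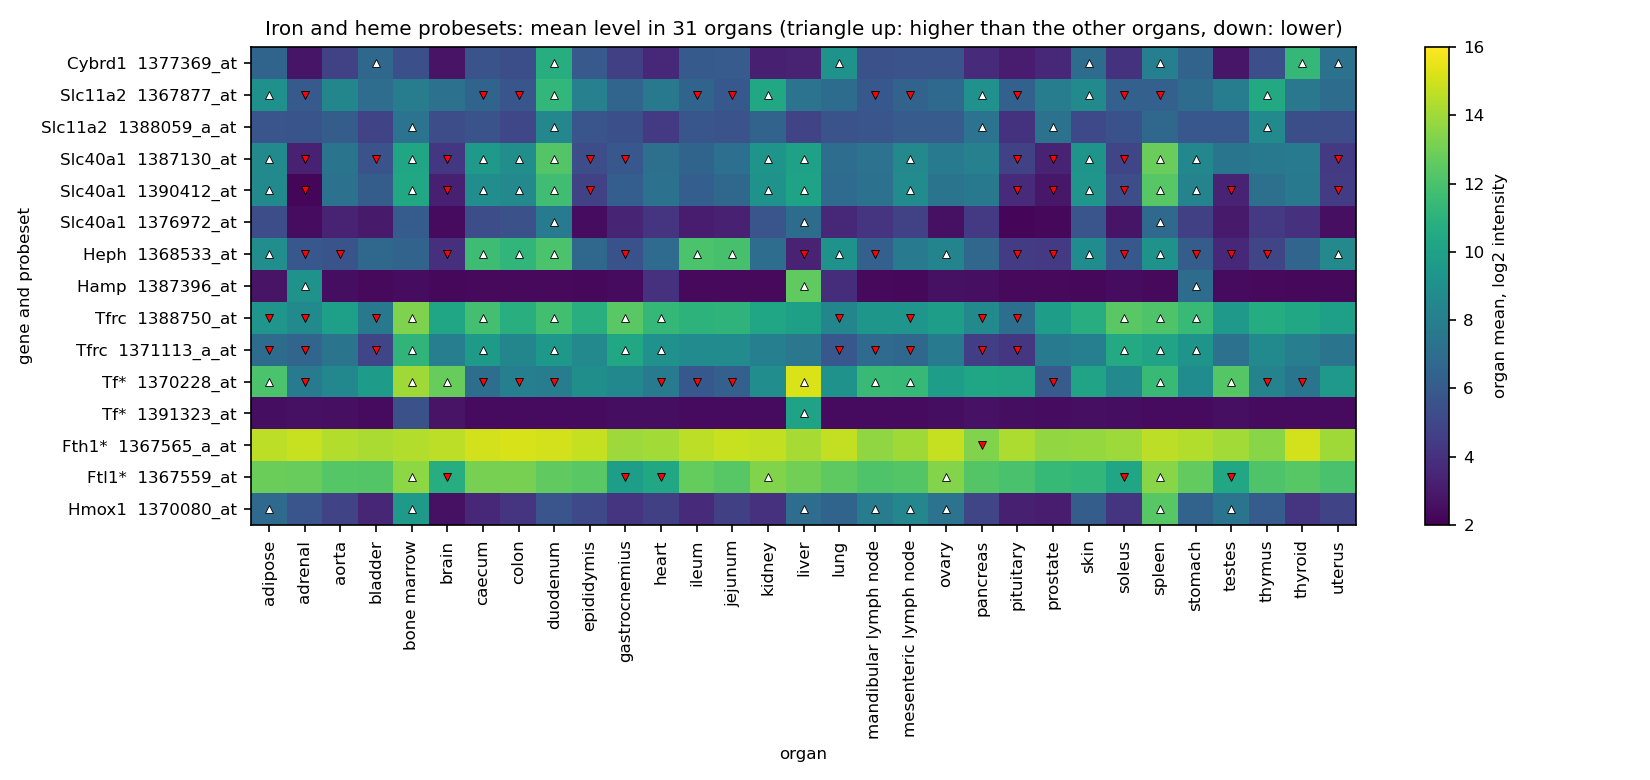
Mean level of the 15 probesets (rows, log2 intensity as colour) in 31 organs (columns), with triangles up and down where a probeset was called higher or lower than in the other organs; an asterisk marks probesets with several symbols. Several genes share a peak organ, with Slc11a2 1367877_at and Heph highest in the duodenum and Slc40a1 1387130_at and Hmox1 in the spleen. Hamp is bright in the liver and adrenal, while the 2 ferritin rows are bright throughout.

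Iron uptake genes were not limited to the gut. Cybrd1, the duodenal ferric reductase that prepares iron for import, was above 6.65 in 7 organs, and its highest mean was in the thyroid. Its 10 thyroid arrays lay between 10.91 and 11.90 with a median of 11.26 (11.30 ± 0.33, SD), 5.95 above the other organs (adjusted p = 2.96e-79, limma). The 9 duodenal arrays lay between 6.95 and 12.71 with a median of 12.03, the 10 lung arrays between 8.81 and 9.50 with a median of 9.16, and the 8 spleen arrays between 7.75 and 8.88 (8.07 ± 0.39, SD). The thyroid overlapped the duodenum, the duodenum the lung and the lung the spleen. These means weigh both sexes alike, and the 5 male duodena, at 12.03 to 12.71, lay above every thyroid array. The spleen did not overlap the uterus, which followed at 7.21, and the remaining organs called higher were the skin and the bladder. The brain had the lowest mean at 2.75. No organ could be called lower, since a lower call needs a mean above 6.65 in the other organs and theirs was below it. The heart, for example, was 1.97 below the other organs (adjusted p = 1.77e-15, limma) and was not called.

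Slc11a2, which encodes the ferrous iron importer DMT1, was above 6.65 in 20 organs by its brighter probeset 1367877_at. The duodenum was highest at 11.29 (lowest array 9.73, highest 12.54, n = 9), followed by the thymus at 10.48 ± 0.26 (SD, n = 8) and the kidney at 10.42 ± 0.28 (SD, n = 10). Each overlapped its neighbour. Differences from the other organs were 3.93 in the duodenum, 3.10 in the thymus and 3.03 in the kidney. The colon was lowest at 5.77, and the jejunum, ileum and caecum were also among the 10 organs called lower. The 2 Slc11a2 probesets correlated at r = 0.635 over the 31 organ means, a description that shares all libraries. The dimmer probeset 1388059_a_at was above 6.65 in 6 organs, with the thymus first at 8.66 and the duodenum next at 8.46, overlapping. In the kidney 1388059_a_at stood only 0.60 above the other organs and was not called.

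Slc40a1 encodes ferroportin, the only iron exporter known in mammals. In the spleen its probeset 1387130_at read between 12.47 and 13.13 on 8 arrays with a median of 12.87, and in the duodenum between 11.16 and 13.20 on 9 arrays with a median of 12.90. These 2 organs overlapped each other, and neither overlapped bone marrow, which came next at 10.30, followed by the liver at 9.99. The spleen stood 5.56 above the other organs (SE 0.223, adjusted p = 1.87e-61) and the duodenum 4.99 (SE 0.205, adjusted p = 8.42e-60). At the other end, the adrenal had a mean of 3.27, which was 4.31 below the other organs, and brain, pituitary, both skeletal muscles, bladder, prostate, epididymis and uterus were also called lower. The 3 Slc40a1 probesets correlated at 0.917 to 0.948 over organ means.

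The lymph node values of Slc40a1 depended on male 5. Its mandibular array read 10.33, against 6.14 to 8.18 on the other mandibular arrays, and its mesenteric array read 5.32, against 8.34 to 9.42 on the other mesenteric arrays. Heph on the mesenteric array of male 5 read 5.31, against 7.40 to 10.01 on the others. Hmox1 on the mandibular array of male 5 read 9.91, against 6.95 to 8.87 on the others, and on the mesenteric array 6.96, against 7.81 to 9.18 on the others. Without both arrays the Slc40a1 difference in the mesenteric node was 1.69 instead of 1.18, and in the mandibular node -0.47 instead of -0.11, while that of Hmox1 was 3.24 instead of 3.01 in the mesenteric node and 2.17 instead of 2.37 in the mandibular node. The number of member probesets called in either direction was 5 instead of 7 in the mesenteric node (9.71% of all probesets), where Slc11a2 1367877_at and Tfrc 1388750_at lost their call, and stayed at 5 in the mandibular node (12.2%). Leaving out the arrays at odds with their labelled sex left the counts at 8 in bone marrow (16%) and 4 in the heart (13.4%), and gave 2 instead of 1 in the aorta (10.4%) through Slc11a2 1367877_at. In the heart the Hamp difference from the other organs was 1.31 instead of 0.83 without the array of male 5.

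Heph, hephaestin, is the ferroxidase that works with ferroportin in the enterocyte. It was highest in 5 bowel segments, with 12.05 ± 0.79 in the duodenum (SD, n = 9), 12.03 ± 0.21 in the ileum (SD, n = 10), 11.92 ± 0.22 in the jejunum (SD, n = 9), 11.64 ± 0.15 in the caecum (SD, n = 10) and 11.22 ± 0.30 in the colon (SD, n = 10). Each segment overlapped the next in order, and none of the colon arrays overlapped the spleen, the next organ at 9.11. Heph was called higher in 11 organs and lower in 12, with the lowest mean in the liver (3.40).

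Along the bowel, the duodenum was set against each other segment in the same fit. Against the jejunum, 7 of 15 member probesets were called higher (0.702% of all probesets) and 0 lower (1.23%). They were every Slc40a1 and Slc11a2 probeset, Cybrd1 and Srprb/Tf 1370228_at, so a gene with several probesets counts more than once. Against the ileum 7 were higher (1.43%), against the caecum 6 (2.5%) and against the colon 7 (2.7%), with 0 lower in each (2.26%, 3.31% and 3.6% of all probesets, in the same order). Slc11a2 1367877_at differed most from the jejunum, with 11.29 in the duodenum and 5.85 in the jejunum, a 43.4-fold difference (5.44, SE 0.200, adjusted p = 3.99e-66). Slc40a1 1387130_at averaged 12.27 in the duodenum and 7.14 in the jejunum (5.14, SE 0.284, 35.2-fold), and Cybrd1 averaged 10.73 in the duodenum and 6.03 in the jejunum (4.70, SE 0.270, 26.1-fold). All duodenal arrays of these 3 genes lay above all jejunal arrays, which reached 6.73 for Cybrd1, 6.57 for Slc11a2 and 8.35 for Slc40a1. Heph, by contrast, differed from the jejunum by 0.13 (SE 0.260, adjusted p = 1.00) and was not called. The probeset Srprb/Tf 1370228_at was higher by 1.56, but some of its duodenal arrays, given below with the sexes, lay under its jejunal mean of 6.30. Tfrc 1388750_at was higher by 0.65 (adjusted p = 0.0105), which is under 2-fold. Marker lists differed between these segments too, with a mean level of pancreatic acinar markers of 12.09 in the duodenum and 3.48 in the jejunum and of goblet and gastric mucous markers of 11.04 in the duodenum and 8.18 in the jejunum. Slc11a2 1367877_at averaged 9.10 in the pancreas, and the part of these cell types in the differences was not tested.

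Slc40a1 was present again in the large bowel, with 6.53 in the ileum, 9.55 in the caecum and 8.90 in the colon, so that the duodenum stood 2.73 above the caecum and 3.37 above the colon. Cybrd1 did not share this pattern, with 5.96 in the ileum, 5.61 in the caecum and 5.34 in the colon, all under 6.65.

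**Figure D2:**
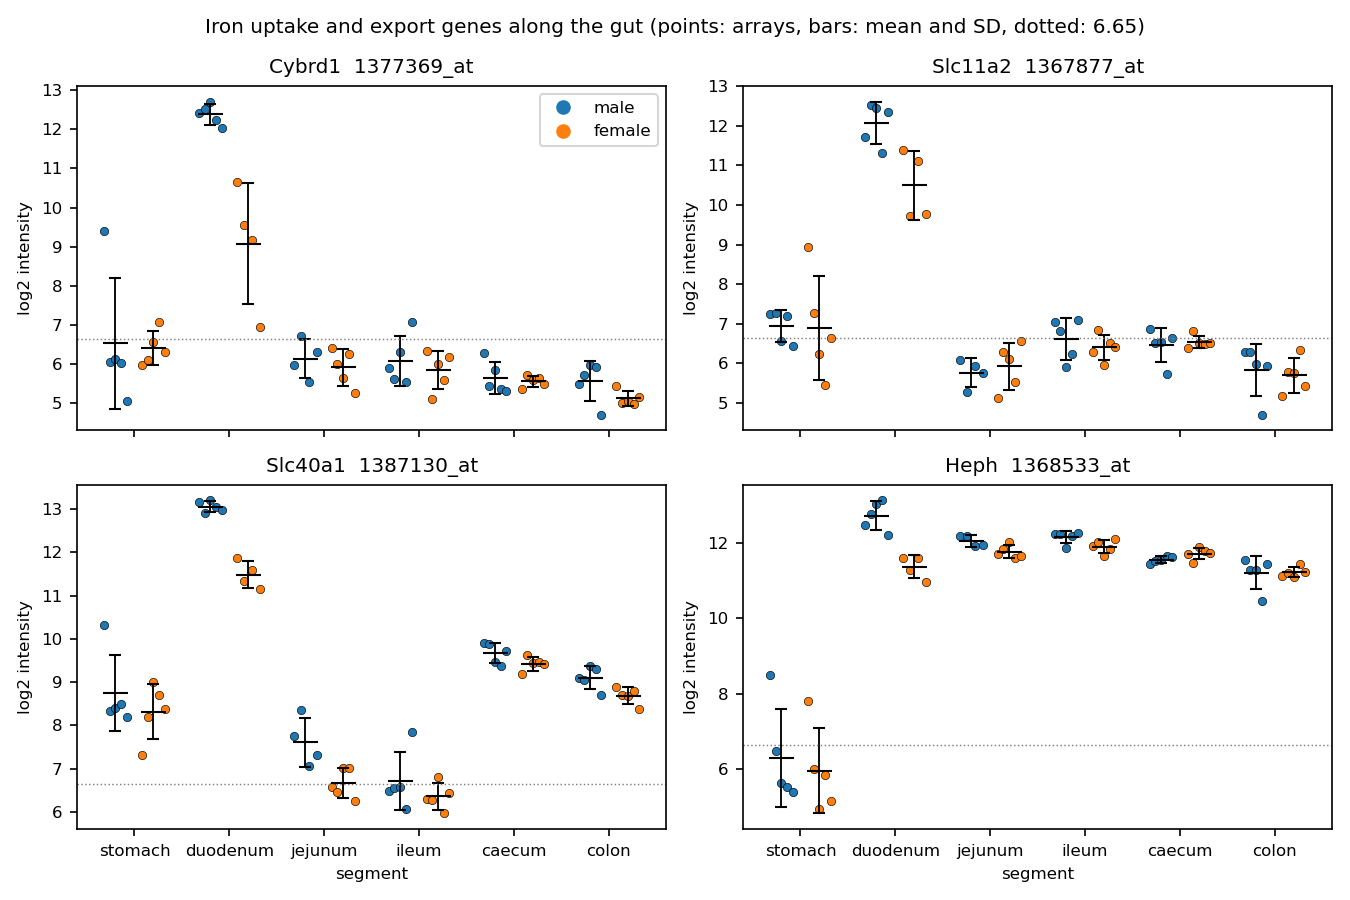
Values by array (points; log2 intensity, with mean and SD as bars and 6.65 as a dotted line) of Cybrd1, Slc11a2, Slc40a1 and Heph along the gut, males left of females in each segment. Cybrd1 and Slc11a2 are bright in the duodenum alone among the bowel segments, Slc40a1 is bright again in caecum and colon, and Heph stays between 11.22 and 12.05 on average from duodenum to colon; stomach male 1 stands apart with 9.40 for Cybrd1.

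The stomach array of male 1 read 9.40 for Cybrd1, against 5.05 to 7.07 on the other stomach arrays, and 10.32 for Slc40a1 and 8.51 for Heph. The enterocyte and liver transcript Apoa1 read 11.09 on the same array. The part of this in the stomach values was not tested.

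Hamp, which encodes hepcidin, was on average above 6.65 in the liver, adrenal and stomach only, and was called higher in these 3 organs. In the liver the males read 12.66, 12.26, 12.74 and 12.80, and the females 12.69, 13.08, 12.60, 12.49 and 12.13. The sexes overlapped and differed by 0.02 (SE 0.190, adjusted p = 0.977). In the adrenal the males read 9.35, 9.52, 9.52, 11.01 and 9.66, and the females 8.93, 8.24, 7.59, 8.86 and 8.48, so that every male adrenal lay above every female adrenal, with a difference of 1.39 that missed the threshold (SE 0.365, adjusted p = 0.0645). The adrenal mean was 6.13 above the other organs (SE 0.222, adjusted p = 2.19e-68), and no adrenal array overlapped the liver. Hepatocyte transcripts were low in the adrenal, where Alb read 2.88 to 4.77 and Apoh, Fgb and Ambp did not exceed 3.23, while Serpina1 read 4.74 to 7.60.

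Stomach Hamp was uneven, with 6.97, 7.16, 8.31, 7.94 and 8.99 in males and 2.33, 5.72, 8.09, 7.98 and 6.20 in females. The sexes overlapped and the difference of 1.81 was not called (adjusted p = 1.00). On the stomach arrays Apoh and Fgb did not exceed 2.36, while Alb read 3.30 to 8.59, Serpina1 4.64 to 8.35, Ttr 4.65 to 7.38 in males and 2.85 to 6.80 in females, and Apoa1 5.82 to 11.09 in males and 2.26 to 6.75 in females. Their part in the Hamp values was not tested. In the heart, male 1 read 6.71 and male 3 read 9.60, whereas the other 5 arrays read 2.39 to 3.13, and on the heart array of male 3 Alb was at 2.93, Apoh at 2.29 and Ttr at 8.21, within 8.21 to 9.63 over all heart arrays. One adipose array, male 5, read 6.35 for Hamp together with 14.92 for Alb, 10.52 for Apoh and 9.59 for Fgb, and the part of liver RNA in that value was not tested.

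Tfrc, the transferrin receptor that brings iron-loaded transferrin into cells, was above 6.65 in all 31 organs by its brighter probeset 1388750_at. Bone marrow was highest for 1388750_at, with males at 13.51, 13.44, 13.34, 13.35 and 13.23 and females at 13.36, 13.10, 13.00 and 13.19. No bone marrow array overlapped the soleus, next at 12.43 ± 0.28 (SD, n = 8), and then came the gastrocnemius at 12.40, the spleen at 12.16, the caecum at 11.80 and the duodenum at 11.77, each overlapping its neighbour. Bone marrow was 3.04 and the soleus 2.17 above the other organs. The pituitary was lowest at 7.05. In the spleen the 3 males read 12.74 to 12.82 and the 5 females 10.13 to 12.77, and the summed erythroid markers were 15.64 to 15.98 in males and 15.18 to 16.02 in females. The sexes of the spleen overlapped and were not called apart. The 2 Tfrc probesets correlated at 0.982 over organ means. By the dimmer 1371113_a_at, above 6.65 in 26 organs, bone marrow was also highest (11.18) but overlapped the soleus (10.57).

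The carrier transferrin was read through Srprb/Tf 1370228_at, which was above 6.65 in 28 organs. The liver was highest at 15.20 ± 0.09 (SD, n = 9), followed by bone marrow at 13.98 ± 0.10 (SD, n = 9), and neither overlapped the next organ. The brain followed at 12.77 ± 0.54 (SD, n = 10), the testes at 12.33 and adipose tissue at 12.02. The other probeset, 1391323_at, was called higher in the liver alone, where it averaged 10.05, and in bone marrow it averaged 5.47. Over the organ means the 2 probesets correlated at 0.597.

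Ferritin, the storage shell built of heavy and light chains, was read by probesets shared with pseudogenes or copies. The Fth1-ps5/Fth1 probeset varied little, between 13.37 in the pancreas and 15.13 in the colon, and was called in 1 organ, lower in the pancreas by 1.02 (adjusted p = 3.10e-34). The Ftl1 probeset (annotated to 5 symbols) was called higher in bone marrow (13.61), spleen (13.49), ovary (13.38) and kidney (13.35), and lower in brain, gastrocnemius, heart, soleus and testes, with the lowest mean of 9.87 in the gastrocnemius.

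Hmox1, the inducible heme oxygenase that opens heme and frees its iron, was highest in the spleen. The 3 male spleens read 12.14, 12.51 and 12.21 and the 5 females 12.08, 12.54, 12.19, 12.73 and 12.62, which was 7.02 above the other organs (SE 0.257, adjusted p = 2.58e-67). No spleen array overlapped bone marrow, which followed at 9.52 ± 0.29 (SD, n = 9). The mesenteric node (8.48), mandibular node (7.86), testes (7.40), ovary (7.33) and liver (7.02) came next, and adipose tissue was the eighth organ called higher. The brain had the lowest mean at 2.62.

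**Figure D3:**
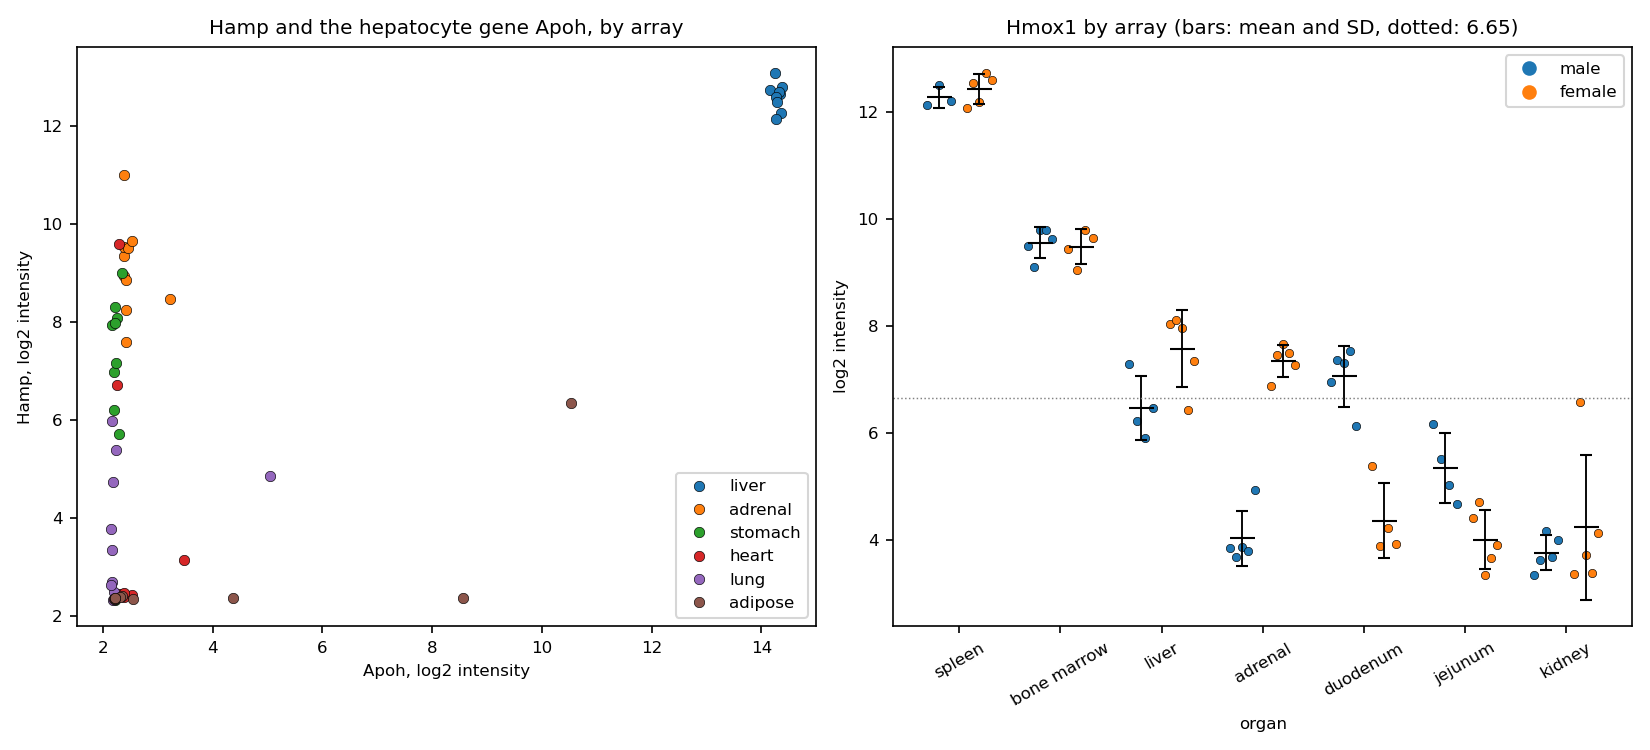
Left, Hamp against the hepatocyte gene Apoh on each array of 6 organs (both log2 intensity); right, Hmox1 by array in 7 organs, males left of females, with mean and SD as bars and 6.65 as a dotted line. Adrenal arrays, and stomach arrays except that of female 1, hold Hamp at low Apoh. On stomach arrays other hepatocyte transcripts, not shown, reached 8.59 for Alb, 8.35 for Serpina1, 7.38 for Ttr and 11.09 for Apoa1. Hmox1 is higher in males than in females of the duodenum and lower in males of the adrenal.

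Genes around the members were counted from 5 lists of iron and heme genes, 59 of them measured by a probeset of 1 symbol. In the liver 27 of 59 were called higher and 2 lower (7.79% and 5.93% of all probesets). They included the heme scavenger Hpx (11.20 above the other organs), the hemoglobin scavenger Hp (9.26) and the hepcidin regulators Tfr2 (8.36), Hjv (6.45) and Hfe (4.04), with Slc46a1, a heme and folate importer, at 4.42. Id1 at -3.24 and Flvcr1 at -1.75 were lower. In the spleen 18 were higher and 4 lower (8.32% and 3.31%), led by Spic, a factor of iron-recycling macrophages (8.28), Alas2, the first enzyme of heme synthesis in red cells (7.24), the hemoglobin receptor Cd163 (5.16), the mitochondrial iron importer Slc25a37 (4.09), Fech, which inserts iron into heme (3.51), and the ferroxidase Cp (2.97). Id1 (-1.95), Alas1 (-1.73), Slc39a14 (-1.53) and Nfs1 (-1.12) were lower in the spleen. In bone marrow 23 were higher and 8 lower (8.87% and 7.12%), among them all 8 genes of heme synthesis with a median difference of 3.71. The largest differences were those of Slc25a37 (7.61), Alas2 (7.28), Hp (7.20), Lcn2 (7.14), Tfr2 (5.44) and Uros (4.41), and on the lower side those of the iron and zinc importer Slc39a14 (-3.41), Epas1 (-2.24), Hmox2 (-2.22), Neo1 (-1.98), Aco1 (-1.95) and Pgrmc1 (-1.68). Summed erythroid markers were 16.11 to 16.28 in bone marrow and 15.18 to 16.02 in the spleen.

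In the duodenum against the jejunum, 6 of the 59 were higher and 5 lower (0.702% and 1.23%). Higher genes were Slc39a14 (1.36), Ncoa4, the receptor that sends ferritin to the lysosome (1.25), Epas1, the hypoxia factor HIF-2α (1.19), Hebp1, a heme-binding protein (1.18), the stress-response factor Nfe2l2 (1.02), and Ireb2, an iron regulatory protein (1.02). Slc46a1 (-2.06), Flvcr2 (-2.48), Steap3 (-1.82), Slc39a8 (-1.41) and Abcg2 (-1.15) were lower.

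The sexes were compared organ by organ, as male minus female, in a limma fit of each organ. Of 390 comparisons of member probesets in 26 organs, 10 were called (2.56%, against 0.312% over all probesets), 8 higher in males and 2 higher in females, with 5 to 10 calls when 1 replicate number was left out, and 22 passed the adjusted p alone (1.41% over all probesets). The 10 calls fell in 4 organs, the duodenum, adrenal, kidney and pituitary, and the other 22 organs had none.

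**Figure D4:**
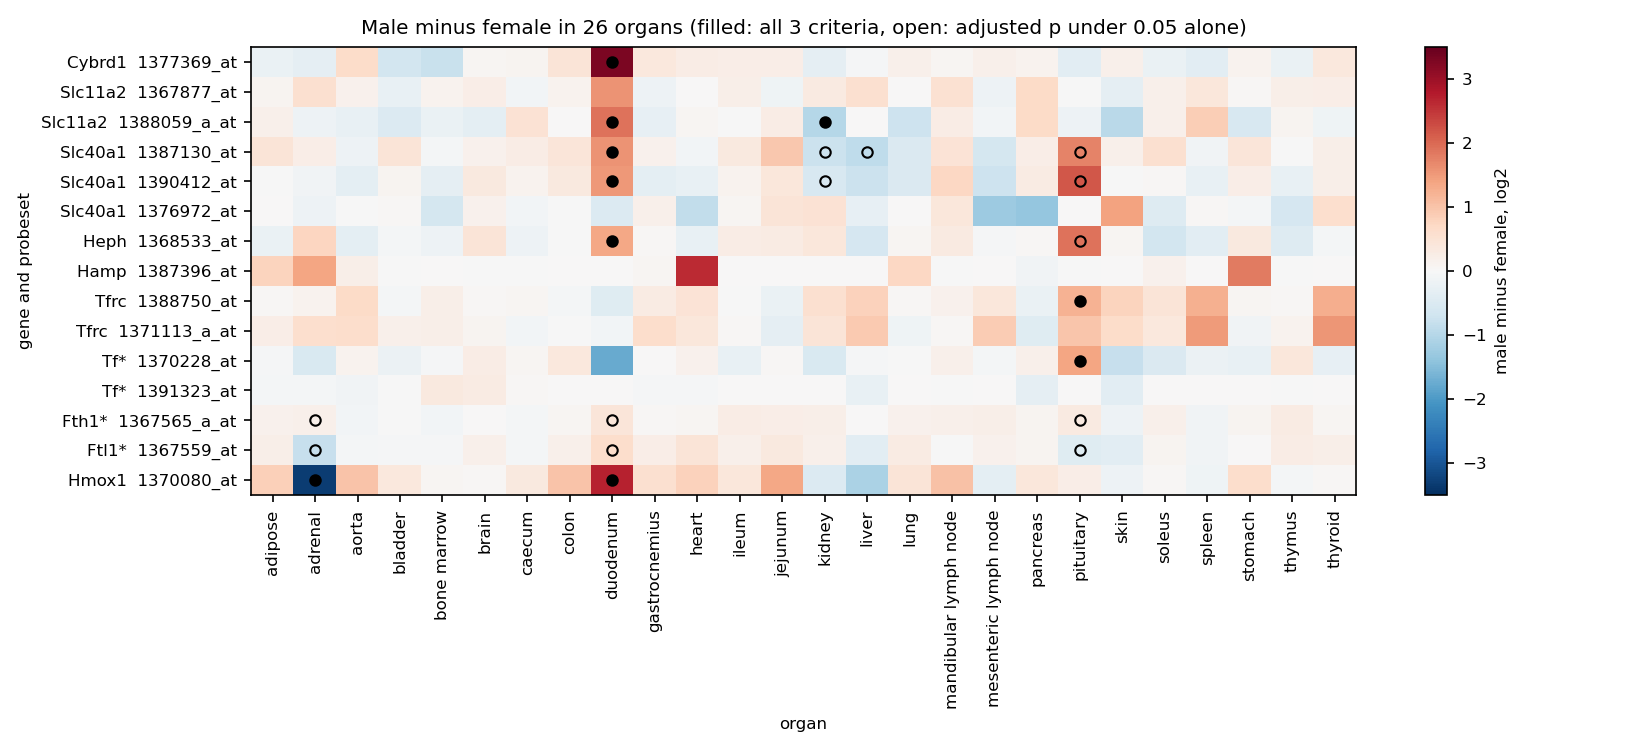
Male minus female difference (log2, red higher in males, blue higher in females) of the 15 probesets (rows) in 26 organs (columns); filled circles mark the 10 calls and open circles an adjusted p under 0.05 alone. The duodenum column holds 6 of the 10 filled circles, and Hmox1 is red in the duodenum and blue in the adrenal.

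The duodenum had 6 of 15 member probesets called, all higher in males, against 2.78% of all probesets called in that organ and 2.27% called higher in males. Slc40a1 entered this count by more than 1 probeset. The median member difference was 0.63 and that of all probesets 0.01. Cybrd1 read 12.41, 12.53, 12.71, 12.23 and 12.03 in males, against 10.65, 9.55, 9.17 and 6.95 in females. No male overlapped a female, the females were spread widely (12.38 ± 0.26 in the 5 males and 9.08 ± 1.55 in the 4 females, SD), and the difference of 3.30 was 9.84-fold (SE 0.651, adjusted p = 0.0204). The call was lost without male 1 (adjusted p = 0.050014), male 2 (adjusted p = 0.0518) or male 3 (adjusted p = 0.0540), with differences between 3.22 and 3.29.

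Slc40a1 1387130_at read 13.16, 12.90, 13.20, 13.05 and 12.98 in males, against 11.87, 11.33, 11.58 and 11.16 in females. The sexes did not overlap, with a 2.97-fold difference (1.57, adjusted p = 0.00199), and the second probeset 1390412_at gave 2.84-fold (1.51, adjusted p = 0.00358). The dimmest probeset, 1376972_at, differed by -0.49 and was not called. Heph read 12.47, 12.78, 13.04, 13.13 and 12.21 in males, against 11.62, 11.29, 11.61 and 10.96 in females, without overlap (1.36, 2.56-fold, adjusted p = 0.0114).

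Hmox1 read 6.95, 7.36, 7.30, 7.53 and 6.12 in male duodenum, against 5.39, 3.89, 4.22 and 3.92 in female duodenum. The sexes did not overlap and differed 6.50-fold (2.70, adjusted p = 0.00745), with the female mean under 6.65. Slc11a2 1388059_a_at read 9.02, 9.70, 9.84, 8.73 and 9.80 in males, against 8.79, 6.92, 7.29 and 7.04 in females. Female 1 lay above male 4, so the sexes overlapped, and the difference of 1.91 (3.75-fold, adjusted p = 0.0323) lost its call without any one of males 1, 2, 3 and 5 and females 2, 3 and 5, at adjusted p between 0.0566 and 0.0902. The brighter probeset 1367877_at averaged 12.07 ± 0.54 in males and 10.50 ± 0.87 in females (SD), a difference of 1.57 that was not called (adjusted p = 0.0660).

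The storage genes differed less. Fth1-ps5/Fth1 was higher in males by 0.41 (adjusted p = 0.0107) and the Ftl1 probeset by 0.63 (adjusted p = 0.0433), both under 2-fold. The carrier probeset Srprb/Tf 1370228_at read 8.64, 5.40, 5.69, 5.39 and 9.77 in males, against 10.71, 9.57, 8.49 and 6.19 in females. Its difference of -1.76, higher in females, was over 2-fold, but the sexes overlapped and it was not called.

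**Figure D5:**
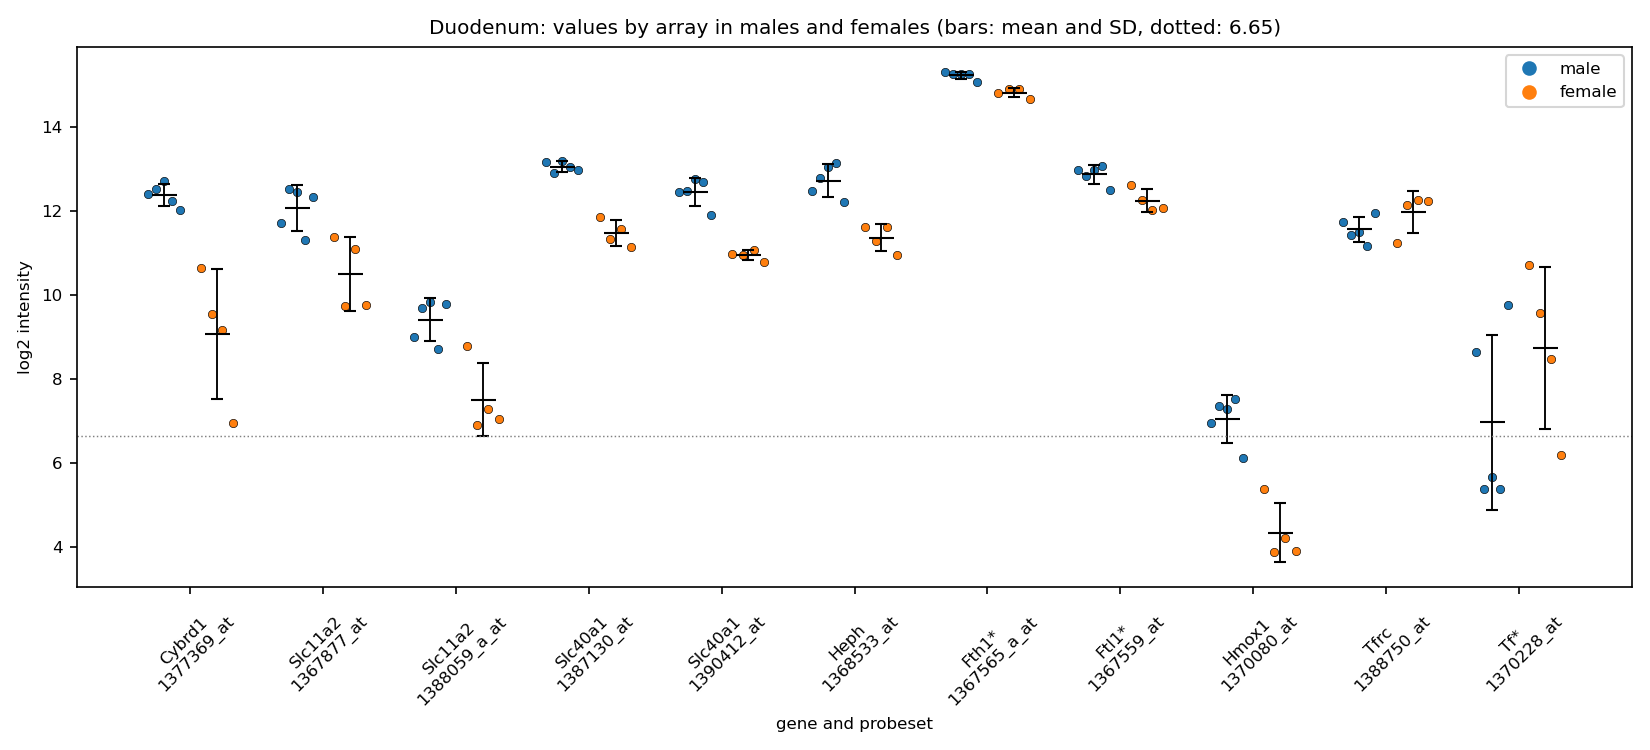
Duodenal values by array (points; log2 intensity) for 11 member probesets in 5 males (left of each pair) and 4 females, with mean and SD as bars and 6.65 as a dotted line; an asterisk marks probesets with several symbols. Males lie above all females for Cybrd1, both Slc40a1 probesets shown, Heph, Hmox1 and the Fth1 probeset, and Cybrd1 in females runs from 6.95 to 10.65. The dimmest Slc40a1 probeset, 1376972_at, is not shown and differed by -0.49.

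Cell type markers moved with sex in the same arrays. Of 10 enterocyte genes, 5 were called higher in males (Akp3 by 3.52, Apoa4 by 2.93, Alpi by 2.03, Apob by 1.52 and Fabp1 by 1.05) and 0 lower, and the summed enterocyte level was 15.92 to 16.94 in males and 14.93 to 15.68 in females, without overlap. All 10 were above 6.65. Vil1, the brush border protein villin, was higher by 0.63 (adjusted p = 0.0244). Of 8 hepatocyte genes, Apoa1, which enterocytes also make, was higher by 1.52, and 7 of the 8 genes were under 6.65. Sums of acinar markers were 15.20 to 16.85 in males and 13.88 to 16.30 in females, those of goblet and gastric mucous markers 14.69 to 16.17 in males and 14.74 to 16.56 in females, and those of smooth muscle markers 14.21 to 14.96 in males and 14.76 to 16.18 in females, with 0 genes called in these 3 lists. Within the gastric markers the arrays ran from 2.19 to 11.13 in males and 2.20 to 14.29 in females for Muc5ac, and from 2.81 to 13.50 in males and 3.85 to 14.87 in females for Tff1. Summed macrophage markers were 12.21 to 12.86 in males and 11.01 to 13.37 in females, with 0 of 10 genes called, Cd68 differing by 1.14 (adjusted p = 0.0457, both means under 6.65) and C1qc by 1.21 (adjusted p = 0.0525). The part of cell content in the differences was not tested.

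The differences depended on the marker they were set against, in a pair of alternatives chosen after seeing the data. As values relative to Vil1 on the same array, which moves every probeset by -0.63, Cybrd1 differed by 2.67, Hmox1 by 2.07, Slc11a2 1388059_a_at by 1.27, Slc40a1 1387130_at by 0.94, Slc40a1 1390412_at by 0.87 and Heph by 0.72. Vil1 was among the enterocyte genes that moved least, and the mean of the 10 enterocyte markers was 12.88 in males and 11.32 in females (1.55). Relative to that mean Cybrd1 differed by 1.75 (SE 0.386), Hmox1 by 1.15 (SE 0.344), Slc11a2 1388059_a_at by 0.35 (SE 0.368), Slc40a1 1387130_at by 0.02 (SE 0.331), Slc40a1 1390412_at by -0.05 (SE 0.324) and Heph by -0.20 (SE 0.325). These Slc40a1 and Heph differences lay within 1 SE of that of the markers. Relative to the same mean, other member probesets met the criteria as lower in males. They were Srprb/Tf 1370228_at (-3.31), Slc40a1 1376972_at (-2.04), Tfrc 1388750_at (-1.97), Tfrc 1371113_a_at (-1.66) and Fth1-ps5/Fth1 (-1.14). Relative to Vil1, Slc40a1 1376972_at (-1.12) and Tfrc 1388750_at (-1.05) did so too. None of these was called on the full log2 scale.

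Of the 59 surrounding genes, 5 were called higher in male duodenum and 0 lower (2.27% and 0.503% of all probesets). Slc46a1, the heme and folate importer, averaged 8.26 ± 0.51 in males and 4.50 ± 0.93 in females (SD, n = 5 and 4), a difference of 3.76 (adjusted p = 0.00412). Ireb2 was higher by 2.18, the heme exporter Abcg2 by 1.64, Ncoa4 by 1.54 and Ppox, an enzyme of heme synthesis, by 1.19.

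The sex differences of the duodenum were then set against those of other organs by interaction, with 60 tests of which 17 passed an adjusted p under 0.05. Against the jejunum 0 of 15 passed (0.512% of all probesets) and 6 had an unadjusted p under 0.05 (11.4%), the Cybrd1 value being 3.08 (adjusted p = 0.0812). In the jejunum, uncalled, Hmox1 differed by 1.35, Slc40a1 1387130_at by 0.95, Slc40a1 1390412_at by 0.39 and Heph by 0.30. Slc11a2 1388059_a_at differed by 0.26 and Cybrd1 by 0.22 there. Lower in males of the jejunum were Slc11a2 1367877_at (-0.15), Tfrc 1388750_at (-0.23) and Tfrc 1371113_a_at (-0.30), also uncalled. Against the ileum 4 passed (5.72%), with Cybrd1 at 3.06, Slc11a2 1388059_a_at at 1.91, Heph at 1.10 and Hmox1 at 2.31. Against the kidney 7 passed (18.1%) and against the liver 6 (9.42%), in which Slc40a1 1387130_at differed by 2.32 and 2.46. With the animal as a block, 11 of the 60 passed: 1 against the ileum (Hmox1), 6 against the kidney, 4 against the liver and 0 against the jejunum.

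In the adrenal, 1 of 15 member probesets was called (0.886% of all probesets). Hmox1 read 3.85, 3.68, 3.87, 3.78 and 4.93 in males, against 6.88, 7.45, 7.67, 7.50 and 7.26 in females. The sexes did not overlap, and the difference of -3.33 was 10.1-fold (SE 0.250, adjusted p = 0.000466), with the male mean of 4.02 under 6.65. The Ftl1 probeset was also lower in males, at 12.32 ± 0.09, against 13.13 ± 0.13 in females (SD, n = 5 each, -0.81, adjusted p = 0.000950), under 2-fold, while Fth1-ps5/Fth1 was higher in males by 0.19 (adjusted p = 0.0359). Summed macrophage markers were 11.24 to 12.19 in males and 11.82 to 12.60 in females, and summed erythroid markers 11.37 to 12.88 in males and 12.09 to 13.82 in females, with 0 of 10 and 0 of 9 genes called. Their part in the result was not tested. The interaction of the Hmox1 sex difference between duodenum and adrenal, added after seeing the data, was 6.03 (adjusted p = 2.58e-06), and 7 of 15 member probesets passed in that comparison (12.4% of all probesets) and 6 of 15 in that with the pituitary (14.3%).

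In the pituitary, 2 of 15 were called (1.17% of all probesets), both higher in males, and 7 passed the adjusted p in limma (7.25% of all probesets). Tfrc 1388750_at read 8.18, 7.28, 8.09, 7.47 and 7.28 in males, against 6.87, 5.83, 6.91, 6.26 and 6.35 in females (1.21, 2.32-fold, adjusted p = 0.0291). Srprb/Tf 1370228_at read 11.48, 10.44, 11.55, 10.42 and 10.51 in males, against 8.94, 10.16, 9.59, 9.66 and 9.18 in females (1.38, 2.60-fold, adjusted p = 0.0338). Neither overlapped between the sexes. Tfrc lost its call without any one of males 1, 3 and 4 and females 2, 4 and 5 (adjusted p between 0.0514 and 0.0682), and Srprb/Tf without any one of males 1 and 3 and females 1, 3, 4 and 5 (adjusted p between 0.0596 and 0.0773). A pair of genes passed the adjusted p while both of their means lay under 6.65: Slc40a1 1387130_at, with 5.57 in males and 3.85 in females (1.73, adjusted p = 0.0143), and Heph, with 5.43 in males and 3.53 in females (1.90, adjusted p = 0.000817). The second Slc40a1 probeset 1390412_at differed by 2.18, Tfrc 1371113_a_at by 0.97 and Fth1-ps5/Fth1 by 0.30. The Ftl1 probeset differed by -0.41, lower in males. Summed smooth muscle markers were 7.61 to 8.32 in males and 8.89 to 9.92 in females, with Tagln at 6.74 in males and 9.05 in females, and summed oligodendrocyte markers were 9.85 to 9.96 in males and 9.48 to 9.90 in females. Their part was not tested.

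In the kidney, 1 of 15 was called (1.85% of all probesets), and 3 passed the adjusted p (11.6% of all probesets), the lowest at 0.00988 in limma. The called probeset, Slc11a2 1388059_a_at, read 6.40, 5.82, 5.63, 5.82 and 6.15 in males, against 6.10, 7.32, 7.16, 6.95 and 7.30 in females. Female 1 lay within the male range, and the means, 5.96 in males and 6.97 in females, sat at the 2-fold limit (adjusted p = 0.0345). The call was lost without any one of males 2 to 5 and females 2 to 5, at adjusted p between 0.0618 and 0.0827. The brighter Slc11a2 probeset gave 0.32 in the other direction (adjusted p = 0.191). The Slc40a1 probesets differed by -0.75 (1387130_at), -0.55 (1390412_at) and 0.49 (1376972_at) in the kidney, all under 2-fold. In the liver 0 members were called (0.825% of all probesets), and 1 of them, Slc40a1 1387130_at, passed the adjusted p, with 9.57, 9.73, 9.12 and 9.76 in males, against 10.57, 10.54, 10.33, 10.36 and 10.35 in females, without overlap and under 2-fold (-0.89, adjusted p = 0.0176). Among the 59 surrounding genes, Hfe was higher (8.24 in males and 7.05 in females, adjusted p = 0.00780) and the iron-binding siderophore carrier Lcn2 lower in male liver (3.93 in males and 6.89 in females, adjusted p = 0.0363), while Abcg2 (1.91) and Slc39a8 (1.25) were higher in male kidney.

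Averaged over 23 somatic organs per animal, 0 of 15 member probesets passed the adjusted p in limma (1.21% of all probesets), and 8 had an unadjusted p under 0.05 (16.1% of all probesets), all 8 higher in males (8.34%). The lowest adjusted p was 0.0738 for Fth1-ps5/Fth1, where the difference was 0.10 and the 5 males lay above all 5 females.

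Over the 31 organ means, the genes most like each member were Ptgs1 for Cybrd1 (r = 0.742), Prss3b for Slc11a2 (0.560), Nr1h3 for Slc40a1 (0.683), Emp1 for Heph (0.832), Apoc4 for Hamp (0.918), Cmc2 for Tfrc (0.735), Tpst1 for Srprb/Tf (0.735), Eps8 for Fth1-ps5/Fth1 (0.750), Nadk for the Ftl1 probeset (0.861) and Cfp for Hmox1 (0.856). The other genes named by this rule were Dennd6a and Leprot for Cybrd1, Pdx1 and Tigd3 for Slc11a2, Ctsc and Dapk2 for Slc40a1, Pgm2 and Plcb3 for Heph, Cyp4v3 and Sebox for Hamp, Stradb and Pstpip2 for Tfrc, Dpy19l1 and Adgre1 for Srprb/Tf, Nol4l and Cers6 for Fth1-ps5/Fth1, Pnp and Caprin1 for the Ftl1 probeset, and Cd300a and Pilrb2l4 for Hmox1, at r between 0.534 and 0.886. These correlations describe organ means that share the same libraries.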

How the data were processed

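Total RNA of each organ was hybridised to Affymetrix RAE230_2 arrays. The authors deposited log2 intensities made with GCRMA (version not given in the sources used here), 1 value per probeset and array, and required an RNA integrity score and removed a few arrays by quality control. GCRMA adjusts background by probe sequence, so that dim values gather near a floor, and summarises the probes of a probeset. Which arrays were normalised together is not given in the sources used here, and the array medians differed. Scanner files were not used here. Of 31042 probesets, 20826 had 1 gene symbol in the platform annotation, 436 several and 9780 none, and 20758 of the first were matched in RefSeq. The number of columns without a sample was 0.

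Tests used limma 3.58.1 in R 4.3.3 with Benjamini-Hochberg adjustment over all probesets. Tables and figures used Python 3.11.15, numpy 2.4.6, pandas 2.3.3 and matplotlib 3.10.9. The study's 3 criteria were kept (adjusted p under 0.05, over 2-fold, a mean above 6.65), and limma replaced its test because groups are small. Replicate numbers name animals, so the same sex and number in different organs is the same animal, except in adrenal, bone marrow and pituitary, where the supplement gives another number series. Leaving out an animal there leaves out the sample of that replicate number. Such arrays had a median correlation of deviations of 0.0655 over 2005 pairs, against -0.0178 over 8038 pairs of other numbers. Adrenal, bone marrow and pituitary were left out of the average over organs because their animals carry other numbers.

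All 10 member genes are named, with the probeset of the highest mean as the main one, every member probeset called between sexes, the 3 genes most like each member, and up to 6 surrounding genes in each direction per comparison. The members and lists were chosen with earlier results of these data known. The fits for sex within an organ, for sex between duodenum and kidney and for duodenum against jejunum were tested on simulated data. The number of arrays limits the precision. Alternatives covered normalisation, centring, the spread model, thresholds, the methods' t-test, the samples in the fit, doubted arrays, replicates left out, blocks and the probeset per gene. Leaving out both lymph node arrays of male 5, the values relative to Vil1 or to the mean enterocyte marker and the interactions with adrenal and pituitary were added after seeing the data.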

Additional observations from a re-analysis of the deposited data

Results flagged for a closer look

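In 36 groups of sex, organ and probeset with 4 or 5 arrays, 1 array stood apart by its gap to the others, which chance alone gives in about 1 of 20 groups. It was Hmox1 in the adrenal of male 5, at 4.93, against a group median of 3.85 (gap over range 0.851).

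The male minus female difference of the duodenum differed from that of another organ in 30 tests of the difference itself (adjusted p under 0.05, limma interaction). Against the ileum these were Cybrd1 (3.06), Slc11a2 1388059_a_at (1.91), Heph (1.10) and Hmox1 (2.31). Against the kidney they were Cybrd1 (3.62), Slc11a2 1388059_a_at (2.91), Slc40a1 1387130_at (2.32) and 1390412_at (2.06), Heph (0.96), Tfrc 1388750_at (-0.97) and Hmox1 (3.17). Against the liver they were Cybrd1 (3.35), Slc11a2 1388059_a_at (1.90), Slc40a1 1387130_at (2.46) and 1390412_at (2.27), the Ftl1 probeset (1.00) and Hmox1 (3.81). With 1 animal left out, Cybrd1, Slc11a2 and Heph against the ileum, Heph and Tfrc against the kidney, and Cybrd1, Slc11a2 and the Ftl1 probeset against the liver missed the threshold in at least 1 setting, and the rest of these 17 did not.

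Comparisons with the adrenal and pituitary were added after seeing the data and gave 13 of the 30, with 7 of 15 members in the adrenal (12.4% of all probesets) and 6 of 15 in the pituitary (14.3%). With the adrenal these were Cybrd1 (3.62), Slc11a2 1388059_a_at (2.08), Slc40a1 1387130_at (1.34) and 1390412_at (1.63), Hamp (-1.38), the Ftl1 probeset (1.44) and Hmox1 (6.03). Duodenal Hamp averaged 2.35, under 6.65, and its sex difference was 0.006 there, against 1.39 in the adrenal. With the pituitary they were Cybrd1 (3.66), Slc11a2 1367877_at (1.58) and 1388059_a_at (2.08), Tfrc 1388750_at (-1.63), the Ftl1 probeset (1.04) and Hmox1 (2.47).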

How the results depend on the processing

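On the same probeset, no alternative turned the direction of a called member value, except that relative to the mean enterocyte marker Slc40a1 1390412_at (-0.05) and Heph (-0.20) of the duodenum changed sign. By the brighter probeset the kidney Slc11a2 difference was 0.32 in the other direction. The sex calls within organs numbered 10, against 18 with 1 fit over all groups and 5 with the replicate number as a block, where the same number in males and females of an organ is not the same animal and the samples share only a number. They numbered 5 to 10 with 1 animal left out (6 without male 1, 5 without male 3, 6 without female 5), and 7 in the methods' t-test. The t-test did not call Slc11a2 1388059_a_at of the duodenum and kidney or Srprb/Tf of the pituitary. Quantile normalisation took the call of duodenal Slc11a2 1388059_a_at. Under the block Cybrd1, Hmox1 and Slc11a2 of the duodenum, Slc11a2 of the kidney and Srprb/Tf of the pituitary lost their call. Adrenal Hmox1, the 2 called duodenal Slc40a1 probesets and duodenal Heph kept theirs under every alternative on the full log2 scale, while both marker-relative scales took these Slc40a1 probesets and Heph under 2-fold. Organ differences called lower numbered 70, against 106 without the expression threshold. With 1 animal left out, organ calls numbered 92 to 96 higher and 69 to 72 lower, and the duodenum had 26 to 29 calls higher and 0 lower than the rest of the bowel. The differences between organs in the sex effect numbered 17, against 11 with the animal as a replicate block and 10 to 26 with 1 animal left out. The average over organs gave 0, against 1 with all somatic organs and 0 to 1 with 1 animal left out. Of the surrounding genes, those higher in female kidney numbered 0, against 2 with any probeset of a gene, and those higher in female liver numbered 1, against 0 after quantile normalisation, 2 with trend and robust spread and 0 to 1 with 1 animal left out. Leaving out 1 animal gave 4 to 5 genes higher in male duodenum, 5 to 7 higher in duodenum than jejunum, 26 to 27 higher and 2 to 3 lower in the liver, 18 to 19 higher and 4 to 5 lower in the spleen and 23 to 24 higher and 7 to 8 lower in bone marrow. Other scalings moved the median of single arrays by up to 0.30. The cause of these changes was not tested. Groups of 2 to 5 arrays and dim levels under 6.65 limit what could be detected.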
